A study of Mus musculus with 40 samples.

Results

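Interleukin-6 (IL-6) receptor and acute phase genes were examined in the liver and gonadal white fat (gWAT, a visceral depot attached to the reproductive organs) of mice whose fathers had been exposed to nicotine. The 10 genes were taken by symbol: Il6ra, Il6st, Stat3, Socs3, Saa1, Saa2, Orm1, Orm2, Hp and Lcn2, of 20078 genes listed in any of the 4 tables. They were chosen by their nicotine against control values in these data, so their differences between groups are given as a description. An adjusted p-value below places a gene among all genes tested in its table and is not independent evidence. All animals were C57BL/6J, and the groups were daughters and sons of nicotine-exposed fathers and of control fathers, whose columns the table headers call DMSO. The labels give 40 samples in 8 groups of 5 by tissue, sex and paternal exposure, and 39 libraries were analysed, with 4 control libraries in male gWAT. The labels used here give no age, dose or duration, and do not trace a sample to an animal, litter or father. P-values therefore reflect only how far these samples spread, and that spread may be technical.

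IL-6 binds the receptor chain encoded by Il6ra, and the complex recruits the shared signalling chain gp130, encoded by Il6st. Kinases of the JAK family bound to gp130 then phosphorylate STAT3, which enters the nucleus and switches on its targets. Among these is Socs3, whose product binds gp130 and shuts the signal off. In hepatocytes this pathway, together with IL-1 signalling through NF-kB and C/EBP factors, drives the acute phase response, in which the liver secretes serum amyloid A (Saa1, Saa2), orosomucoid (Orm1, Orm2), haptoglobin (Hp) and lipocalin 2 (Lcn2). Adipocytes and macrophages also make several of these proteins.

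Transcripts were counted by 3′ tag sequencing, in which polyadenylated RNA is read close to its 3′ end. The libraries held 1543208 to 2239073 reads, all with the same batch number in the labels. Values are the authors' normalized counts, and differences are log2(normalized count + 1) of nicotine minus control, a scale that understates the change of low genes. Because the 4 tables were normalized separately, tests were made within a table, or between the sexes as a difference of changes. A gene was tested where its mean was 10 or more, and called where its limma adjusted p was below 0.05. Of the 10 genes, 8 were tested in each liver table and 7 in each gWAT table. Orm2 and Lcn2 were too low in liver, Saa1 too low in both gWAT tables and Saa2 too low in male gWAT. Saa2 was not listed in female gWAT, nor Orm2 in either gWAT table.

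The labelled tissues carried their markers. The 6 hepatocyte markers summed to 60336 to 76267 normalized counts in female liver and 39227 to 60314 in male liver, and 6 adipocyte markers to 20080 to 47534 in female gWAT and 16413 to 60528 in male gWAT. Some libraries also held transcripts of other tissues. In male liver, nicotine library 4 held 4862 counts of 5 skeletal muscle markers, against 0 to 5.89 in the others. Nicotine library 2 held 7795 counts of 5 pancreatic acinar markers, against 23.7 to 132. Nicotine libraries 1 and 5 correlated least with the rest beside library 4 (median Pearson r across genes 0.883 and 0.895, and 0.891 for library 4). Libraries 1 and 5 held 358 and 369 counts of a list of 7 reproductive tract epithelium markers, against 118 to 170 in the other male liver libraries. All female liver libraries held counts of this list too (88.4 to 139, with Lcn5 and Lcn8 not listed). Of these markers only Krt8 and Krt18 were high enough to be tested in male liver (log2 change 0.78 and 0.39, neither called). Whether these sums came from another tissue was not tested. In female liver, control library 4 and nicotine library 5 held 139 and 257 counts of the muscle markers. In female gWAT, control library 2 held 18966 of them. In male gWAT, the epithelium markers reached 12574 counts in the first control and 10343 in the first nicotine library, and were as low as 88.3 in another control. The 4 mesothelial markers were at 63.7 to 205 counts in the female gWAT controls and 31.2 to 88.1 in the nicotine libraries, with Msln and Upk3b called lower. Their part in the female gWAT results was not tested. They were not listed in female liver, and their groups overlapped in the male tables. Fewer cells of a type and less RNA per cell cannot be told apart in such bulk samples.

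Promoter stretches of 4 members are shown because their counts carry the results that follow: Il6ra and Socs3 for the receptor and its inhibitor, and the Saa1 and Saa2 pair, which varied together. The sequences are from RefSeq on GRCm38.p6, and 8 of the 10 members had a window of 250 bases before to 50 after the start. Matches were searched for on both strands to 3 motifs: the STAT palindrome TTCNNNGAA, the C/EBP type element TTNNGNAA and the NF-kB type element. Capitals mark the matches, which did not overlap each other. Il6ra is shown at chr3:89913247-89913446 on the minus strand, Saa1 at chr7:46743031-46743230 on the minus strand and Saa2 at chr7:46751583-46751782 on the plus strand, each from 250 to 51 bases upstream. Socs3 is shown at chr11:117969502-117969530 on the minus strand, upstream of the RefSeq start and within an intron of a longer Socs3 transcript in GENCODE.
Il6ra: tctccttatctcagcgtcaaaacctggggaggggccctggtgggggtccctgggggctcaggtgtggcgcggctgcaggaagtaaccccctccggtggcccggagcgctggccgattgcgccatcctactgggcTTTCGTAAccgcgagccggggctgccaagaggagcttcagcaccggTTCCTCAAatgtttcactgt
Socs3: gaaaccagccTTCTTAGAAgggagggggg
Saa1: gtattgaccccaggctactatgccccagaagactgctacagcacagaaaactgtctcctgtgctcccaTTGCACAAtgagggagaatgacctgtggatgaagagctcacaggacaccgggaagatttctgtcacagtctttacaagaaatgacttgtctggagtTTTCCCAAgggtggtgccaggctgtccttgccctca
Saa2: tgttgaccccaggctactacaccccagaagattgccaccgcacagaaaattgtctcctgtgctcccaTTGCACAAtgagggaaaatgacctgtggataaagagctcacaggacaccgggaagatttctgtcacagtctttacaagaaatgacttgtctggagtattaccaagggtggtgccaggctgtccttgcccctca
The capitals in Il6ra, Saa1 and Saa2 are C/EBP type matches, and those in Socs3 are the STAT palindrome, which starts 154 bases upstream. Of the 8 windows, the STAT palindrome was found in that of Socs3, and 8.30% of all 32851 promoter windows of 300 bases hold it. The C/EBP type element was found in the windows of Il6ra, Stat3, Saa1, Saa2, Orm2 and Lcn2, and in 40.7% of all windows. The NF-kB type element was found in none of the 8, and in 1.63% of all windows. The Saa1 and Saa2 stretches were identical at 188 of 201 aligned positions (93.5%). A match describes the letters only.

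Il6ra, the IL-6 binding chain, was the 1 tested member whose groups did not overlap in either liver, and it lay on opposite sides of control in daughters and sons. It was higher in the liver of daughters of nicotine-exposed fathers and lower in the liver of sons, with no overlap between the 2 groups of either sex. In mm10 the gene spans chromosome 3 from 89864059 to 89913196, minus strand, and the non-coding gene Gm42809 overlaps it on the other strand. The use of strand in counting is not given in the sources used here, so reads of 2 such genes cannot be told apart.

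In female liver, the Il6ra counts of the control libraries were 28.2, 26.0, 22.1, 23.8 and 30.0, and those of the nicotine libraries 65.9, 50.4, 66.6, 51.3 and 42.4. Every nicotine library lay above every control library. The means were 26.0 ± 3.22 and 55.3 ± 10.6 (SD, n = 5 each), the second 2.13 times the first (log2 change 1.05, SE 0.16, limma adjusted p = 9.50e-04). Il6ra was the 35th gene of 9173 by p. The authors' deposited table gives it a log2 fold change of 0.87 and an adjusted p of 5.33e-05. Of the 8 members tested in female liver, Il6ra alone was called, against 3.28% of all tested genes. It was also the 1 member whose groups did not overlap, as in 4.73% of all tested genes.

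In male liver, the Il6ra counts of the control libraries were 37.6, 36.9, 42.5, 34.2 and 38.1, and those of the nicotine libraries 19.1, 25.9, 20.9, 25.6 and 14.7. Every nicotine library lay below every control library. The means were 37.9 ± 3.00 and 21.3 ± 4.68 (SD, n = 5 each), a control mean 1.78 times the nicotine mean (log2 change -0.83, SE 0.18, limma adjusted p = 0.122). That is not past the threshold. DESeq2 on the whole reads gave a log2 change of -0.86 with an adjusted p of 0.0451, and the authors' deposited table gives -0.74 and 0.0457. Without the 2 libraries that carried muscle or pancreas transcripts, Il6ra differed by -1.02 (limma adjusted p = 0.0425). Without nicotine libraries 1 and 5 it differed by -0.63 (limma adjusted p = 0.217). Il6ra was lowest in libraries 1 and 5, whose hepatocyte markers (39630 and 39226 counts) lay below all controls (49054 to 57792); the part of these markers in the result was not tested. None of the 8 members tested in male liver was called by limma, against 0.055% of all tested genes. Il6ra, Stat3, Saa1 and Saa2 had an unadjusted p below 0.05, as did 14.5% of all tested genes. By edgeR's quasi-likelihood test 0 members were called, against 0.033% of all tested genes, and by DESeq2 1, against 1.53%. Il6ra was the 1 member tested whose groups did not overlap in male liver, against 3.16% of all tested genes.

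The change of Il6ra in the male liver minus that in the female liver was -1.87 on the log2 scale (SE 0.23, 95% interval -2.36 to -1.39, limma adjusted p = 1.77e-04). Of the 8 members tested for such a sex difference in liver, Il6ra alone was called, against 1.56% of all tested genes. It was called in all 20 fits that left out 1 library, with differences between -1.96 and -1.76. Of 8699 genes tested in both liver tables, 204 were higher without overlap in the daughters of the nicotine group and 168 lower without overlap in the sons. The sets shared 9 genes, which is 4.41% of the first and 5.36% of the second, and Il6ra was among them.

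**Figure D1:**
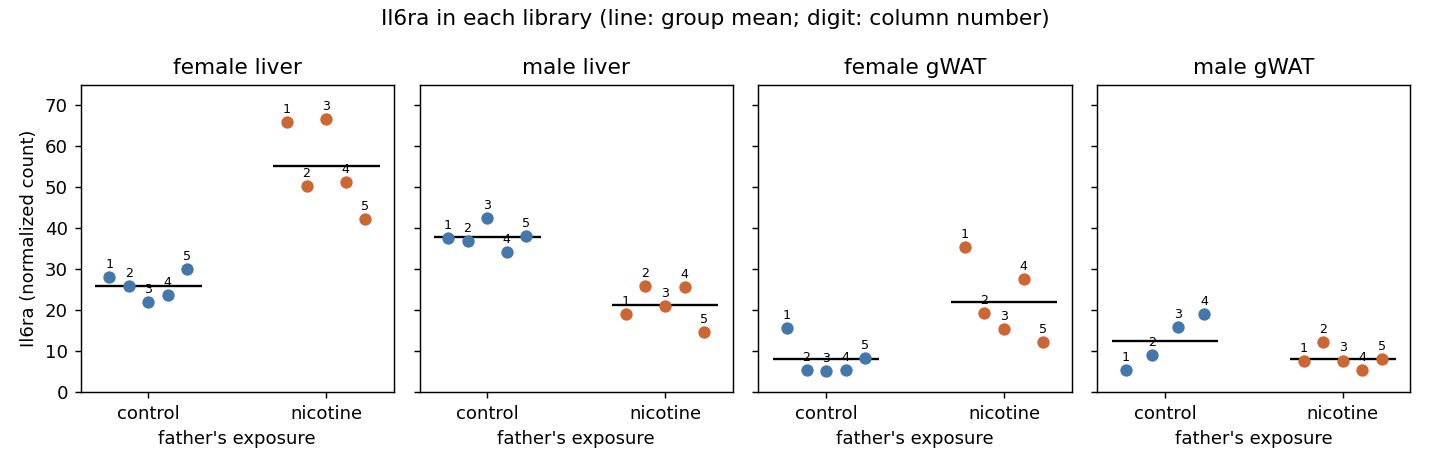
Il6ra normalized counts (vertical axis) in each library of the 4 tables, by the father's exposure; points are libraries with their column number and lines are group means. In female liver the nicotine libraries (42.4 to 66.6) lie above the controls (22.1 to 30.0), and in male liver they (14.7 to 25.9) lie below the controls (34.2 to 42.5).

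In gWAT, Il6ra was lower in reads than in liver. The counts of the female control libraries were 15.7, 5.50, 5.24, 5.50 and 8.28, and those of the nicotine libraries 35.5, 19.3, 15.5, 27.6 and 12.2. Of the nicotine libraries, 3 lay above all controls, and the other two fell below the highest control. The means were 8.04 ± 4.45 and 22.0 ± 9.51 (SD, n = 5 each), the second 2.74 times the first (log2 change 1.36, SE 0.40, limma adjusted p = 0.0222). Leaving out nicotine library 1 gave 1.17 (limma adjusted p = 0.0538) and leaving out nicotine library 4 gave 1.26 (limma adjusted p = 0.0603), both no longer past the threshold. The control libraries held 6 to 16 reads of Il6ra and the nicotine libraries 13 to 31, so counting error is a large share of each value.

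In male gWAT, the Il6ra counts were 5.43, 9.10, 16.0 and 19.1 in the controls and 7.53, 12.2, 7.74, 5.44 and 8.00 in the nicotine libraries. The groups overlapped, with the highest 2 values in controls (log2 change -0.45, SE 0.45). The male minus female change in gWAT was -1.81 (SE 0.56, 95% interval -2.99 to -0.64, limma adjusted p = 0.0483). That call was lost in 12 of the 16 fits that left out 1 library and still tested the gene, with a pseudocount of 0.5 (limma adjusted p = 0.0507) and with no filter on low values (0.0674).

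As RPM, reads scaled to a common library total, the control means of Il6ra were 20.0 ± 2.08 in male liver, 13.1 ± 1.59 in female liver, 7.30 ± 3.82 in male gWAT and 4.78 ± 2.29 in female gWAT (SD, n = 5, 5, 4 and 5). The control libraries of the 2 livers did not overlap on this scale, while those of the 2 fat groups did. These levels cross tables and carry no test, and the share of all genes separated in this way was not computed. On the RPM scale, the median log2 ratio of nicotine to control over all tested genes was 0.13 in male liver and -0.35 in female gWAT, against 0.01 and -0.02 in normalized counts. In female liver and male gWAT it lay within 0.03 of 0.

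Over the 10 libraries of a liver table, the genes most like Il6ra were given by Pearson r of the log2 values among genes with a mean of 50 or more. In female liver they were Tsc22d3, a glucocorticoid-induced leucine zipper gene (r = 0.96), Cyp7a1, which starts the classical bile acid pathway (0.94), Ndufa10, Pik3r1 and Rnf169. In male liver they were Aldh8a1 (r = 0.96), Faah, Hoga1, Hmgcs1, an enzyme of sterol synthesis, and Acbd5. Both orders hold the difference between the groups, which Il6ra was chosen for, and are a description. Among the members, Il6ra was most strongly related to Socs3 in female liver (r = -0.70, and 0.03 in male liver) and to Lcn2 in male liver (r = -0.64, and 0.43 in female liver). Il6ra and Il6st were weakly related (r = -0.23 in female and -0.12 in male liver).

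Il6st, the gp130 chain that Il6ra needs in order to signal, differed little between the groups. It spans chromosome 13 from 112464070 to 112510086, plus strand. Its means were 72.6 ± 9.86 and 70.1 ± 16.9 in female liver and 78.5 ± 9.98 and 81.2 ± 7.14 in male liver (control and nicotine, SD, n = 5 each). The 95% intervals of the log2 change were -0.39 to 0.25 in daughters and -0.23 to 0.34 in sons, and the groups overlapped in both. The 1.05 log2 change of Il6ra in daughters lies above the upper end of the Il6st interval. In female gWAT, the controls held 131, 133, 131, 136 and 186 counts and the nicotine libraries 263, 139, 139, 151 and 182 (log2 change 0.25, SE 0.20, limma adjusted p = 0.366). Control library 5 and nicotine library 1 stood above the rest of their groups. In male gWAT the means were 127 ± 48.6 (n = 4) and 127 ± 44.8 (n = 5).

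Stat3, the transcription factor activated through gp130, was level in female liver and had a higher mean in male liver. It spans chromosome 11 from 100885098 to 100939540, minus strand and overlaps Stat5a on the other strand. In female liver, the means were 310 ± 4.46 and 310 ± 19.9 (log2 change 0.00, 95% interval -0.17 to 0.17). In male liver, the controls held 316, 306, 222, 392 and 402 counts and the nicotine libraries 370, 472, 561, 499 and 354. Libraries 2, 3 and 4 of the nicotine group lay above all controls, and libraries 1 and 5 within their range. The means were 328 ± 73.5 and 451 ± 87.9 (log2 change 0.47, SE 0.18, limma adjusted p = 0.279), which was not called. In RPM the male liver groups did not overlap (control range 123 to 208, nicotine range 230 to 291). On that scale the median log2 ratio over all tested genes was 0.13. The share of genes without overlap in RPM was not computed. The sex difference in liver was 0.47 (95% interval 0.06 to 0.88, limma adjusted p = 0.235). In female gWAT the means were 239 ± 18.5 and 197 ± 32.0 (log2 change -0.29, limma adjusted p = 0.180), and in male gWAT 328 ± 48.8 and 332 ± 72.0.

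Socs3, the feedback inhibitor of gp130 signalling, was lower in the gWAT of daughters of nicotine-exposed fathers and had no called difference elsewhere. It spans chromosome 11 from 117966079 to 117970047, minus strand. In female gWAT, the control libraries held 13.7, 21.1, 24.5, 16.5 and 14.1 counts, and the nicotine libraries 2.29, 0, 0.909, 1.20 and 9.38. All nicotine libraries lay below all controls, and library 5 held most of the nicotine group's reads. The means were 18.0 ± 4.67 and 2.76 ± 3.79 (SD, n = 5 each), so the control mean was 6.52 times the nicotine mean (log2 change -2.78, SE 0.64, limma adjusted p = 0.00670). In whole reads, the nicotine libraries held 2, 0, 1, 1 and 10 and the controls 14 to 28. A count of 0 allows up to 3 reads in that library, from counting error only. The authors' deposited table gives Socs3 a log2 fold change of -2.05 and an adjusted p of 4.02e-04.

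Of the 7 members tested in female gWAT, Il6ra was called higher and Socs3 lower, against 25.2% of all tested genes called in either direction. Socs3 was the 1 member whose groups did not overlap, as in 16.7% of all tested genes. The mean of Socs3 over all libraries was close to the minimum of 10. Leaving out any 1 control library took it below that minimum, so it was not tested there. The 5 fits that left out a nicotine library gave -3.26 to -2.42, and all called it.

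Macrophage markers, like Socs3, were lower in the nicotine group of female gWAT. The sum of Adgre1, Cd68, Csf1r, Lyz2, Mrc1 and Cd163 was 715 to 1170 counts in the controls and 178 to 376 in the nicotine libraries, without overlap, and none of the 6 was missing from the table. In library order, the macrophage sums were 1013, 715, 845, 1112 and 1170 in the controls. They were 376, 208, 281, 178 and 338 in the nicotine libraries. Among the controls, the order of these sums was not that of Socs3. Among the nicotine libraries, libraries 1 and 5 were the highest for both. A list of 6 Kupffer cell markers, resident macrophage genes, was at 44.1 to 98.9 and 2.40 to 14.5 counts, with Clec4f not listed. Of 9 neutrophil markers 6 were listed, and their sums were at 15.6 to 520 and 1.20 to 10.3. Their part in the Socs3 result was not tested.

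In male gWAT, Socs3 was at 4.53, 10.9, 10.0 and 12.2 counts in the controls and 8.61, 17.9, 20.3, 8.16 and 12.0 in the nicotine libraries. The groups overlapped, and 2 nicotine libraries lay above all controls (log2 change 0.46, SE 0.42). The macrophage markers summed to 435 to 1084 and 511 to 1378 there. The male minus female change of Socs3 in gWAT was 3.24 (SE 0.72, 95% interval 1.75 to 4.72, limma adjusted p = 0.0104). Il6ra and Socs3 were the 2 of 7 members called for a sex difference in gWAT, against 8.87% of all tested genes. In liver, the means of Socs3 were 12.6 ± 5.62 and 8.15 ± 3.56 in daughters (log2 change -0.58, limma adjusted p = 0.413) and 13.1 ± 3.81 and 12.1 ± 6.28 in sons (-0.28, limma adjusted p = 0.803), with overlap in both.

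**Figure D2:**
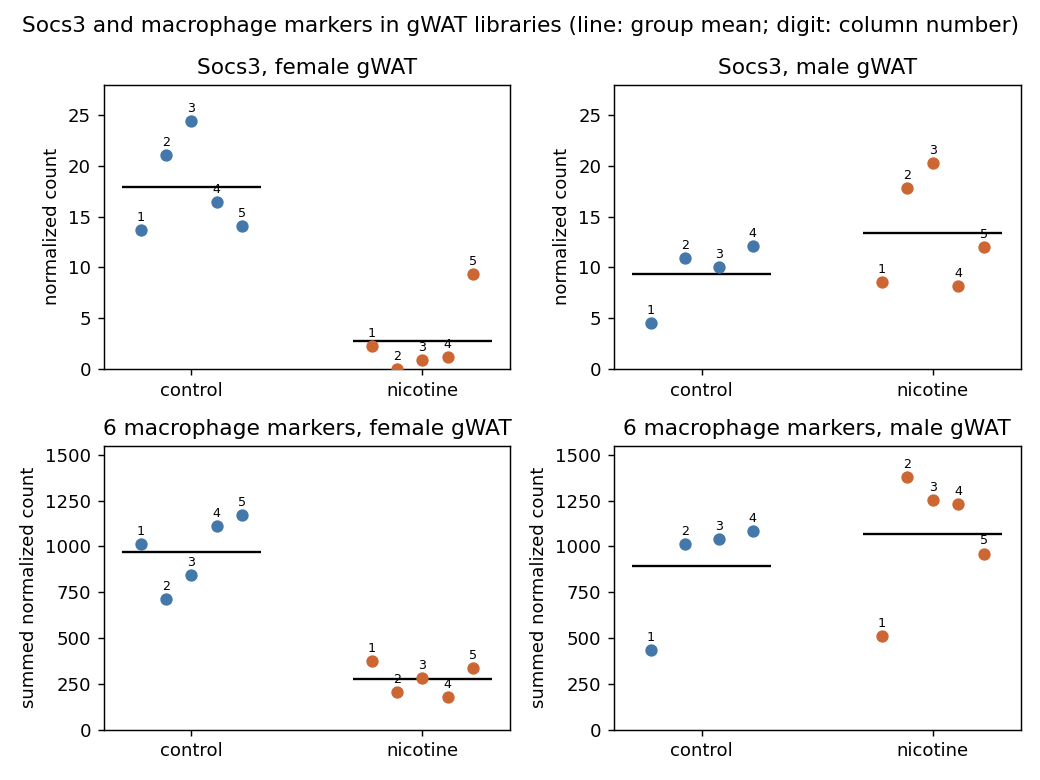
Socs3 normalized counts (top) and the summed normalized counts of 6 macrophage markers (bottom) in each gWAT library, females left and males right; points are libraries and lines are group means. In female gWAT both are lower in all nicotine libraries (Socs3 0 to 9.38 against 13.7 to 24.5), and in male gWAT the groups overlap.

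The serum amyloid A genes had higher means in the liver of sons of nicotine-exposed fathers, with a wide spread and no call. Saa1 spans chromosome 7 from 46740497 to 46742980, minus strand, and Saa2 at 46751790 to 46754313 on the plus strand, with 8809 bases between the 2 genes. Both encode apolipoproteins of high-density lipoprotein that the liver releases in inflammation. In male liver, the Saa1 counts were 208, 519, 327, 374 and 575 in the controls and 331, 783, 882, 2913 and 629 in the nicotine libraries. Of the nicotine libraries, 4 lay above all controls and library 1 lay among them, while library 4 held over 3 times the count of any other library. Neutrophil markers (2 of 9 listed) summed to 12.8 to 16.8 counts in nicotine libraries 2 to 5, above all controls (1.12 to 6.20), and to 5.15 in library 1; their part in the Saa1 and Saa2 values was not tested. The Saa1 means were 400 ± 148 and 1108 ± 1031 (log2 change 1.16, SE 0.45, limma adjusted p = 0.280).

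Saa2 in male liver was at 18.8, 55.9, 46.1, 32.3 and 51.5 counts in the controls and 33.1, 53.9, 96.3, 360 and 114 in the nicotine libraries. Here 3 nicotine libraries lay above all controls, and library 4 was again the highest. The log2 change was 1.27 (SE 0.50, limma adjusted p = 0.290). Library 4 also held the skeletal muscle transcripts. Without it the log2 changes were 0.71 for Saa1 (limma adjusted p = 0.317) and 0.79 for Saa2 (0.336). Without libraries 1 and 5 they were 1.74 (0.0786) and 1.67 (0.177). Libraries 1 and 5 had high sums of the Kupffer cell markers and of the epithelium list, whose source in liver was not tested. These 2 libraries held 476 and 448 counts of Kupffer cell markers, the rest of male liver 241 to 369.

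In female liver, Saa1 was at 180, 116, 248, 200 and 247 counts in the controls and 166, 385, 164, 90.5 and 134 in the nicotine libraries. Nicotine library 2 was the highest, and the other 4 nicotine libraries fell below 4 of the 5 controls. The log2 change was -0.20 (SE 0.27, limma adjusted p = 0.761). Saa2 in female liver was at 37.9, 22.2, 51.8, 37.1 and 34.6 and at 23.6, 93.2, 30.1, 15.3 and 19.6, with the same nicotine library highest. The male minus female change was 1.35 for Saa1 (95% interval 0.14 to 2.57, limma adjusted p = 0.251) and 1.55 for Saa2 (0.15 to 2.96, limma adjusted p = 0.254), so neither sex difference was called.

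Saa1 and Saa2 kept together from library to library, with Pearson r = 0.95 in female and 0.94 in male liver over 10 libraries each. Saa2 made up 12.3% to 19.5% of the reads of both genes in female liver and 6.44% to 15.3% in male liver. Of the 50-base windows in the last 500 bases of Saa1, 5.32% also occur in Saa2, so reads of the pair could be mixed at those places. The genes most like Saa1 were Atp5if1 (r = 0.90), Dazap2, Shmt1, Fech and Emc1 in female liver, and Mrps18c (r = 0.94), Ndufs8, Rps3, Rpl3 and Ndufc1, genes of the ribosome and respiratory complex I, in male liver. Both orders hold the difference between the groups and are a description. The r values of male liver include nicotine library 4, the highest for both Saa genes, and were not computed without it. In gWAT the pair was low: Saa1 held 1 to 9 reads per female library and 1 to 27 per male library.

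**Figure D3:**
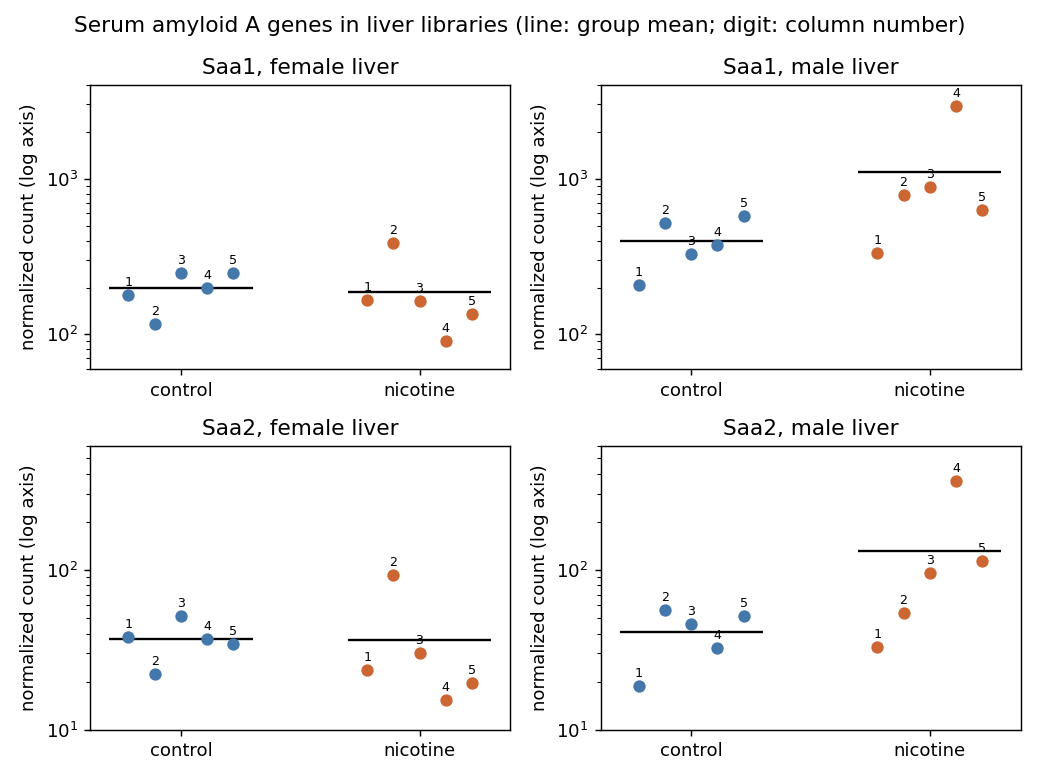
Saa1 (top) and Saa2 (bottom) normalized counts on a log axis in each liver library, females left and males right; points are libraries and lines are group means. In male liver 4 of 5 nicotine libraries lie above all controls for Saa1, and library 4 is highest for both genes (2913 and 360).

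Orm1, an acute phase carrier protein of plasma, spans chromosome 4 from 63344560 to 63348163, plus strand, with Orm2 at 63362449 to 63365878. In female liver, Orm1 was at 583 ± 83.5 counts in the controls and 682 ± 76.0 in the nicotine group (log2 change 0.23, SE 0.11, limma adjusted p = 0.260). In male liver, the controls held 632, 728, 513, 780 and 752 counts and the nicotine libraries 226, 855, 764, 1024 and 409. Libraries 1 and 5 of the nicotine group lay below all controls and libraries 2 and 4 above all of them (log2 change -0.23, SE 0.33, limma adjusted p = 0.786). Libraries 1 and 5 are those whose hepatocyte markers lay below all controls, and the part of this in the Orm1 values was not tested. Of the 50-base windows in the last 500 bases of Orm1, 32.6% also occur in Orm2, so reads of the 2 genes may have been split by the counting. Orm2 was at most 10.5 counts in any liver library.

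Orm1 leaned opposite ways in the fat of the 2 sexes, without a call. In female gWAT, the controls held 293, 200, 313, 295 and 303 counts and the nicotine libraries 96.3, 167, 270, 209 and 194. Control library 2, which held the muscle transcripts, was the low one of its group. The log2 change was -0.64 (SE 0.24, limma adjusted p = 0.0630), and without control library 2 it was -0.76 (0.0369). Without nicotine library 3 it was -0.79 (limma adjusted p = 0.0275). These were the 2 of 10 fits leaving out 1 library that called it, and the 10 gave -0.79 to -0.42. Under quantile normalization it was -0.69 (limma adjusted p = 0.0451). Without control libraries 2 and 4 and nicotine library 5 together it was -0.80 (limma adjusted p = 0.0878). Of all tested genes in female gWAT, 25.2% were called in the main fit. In male gWAT, the controls held 62.5, 162, 140 and 131 counts and the nicotine libraries 208, 148, 123, 332 and 652. The highest 3 values were nicotine libraries (log2 change 1.04, SE 0.47), yet none of the 7 members tested there was called. The male minus female change of Orm1 was 1.68 (95% interval 0.58 to 2.78, limma adjusted p = 0.0505), and it was called in 3 fits that left out 1 library, female nicotine library 3 or male nicotine library 2 or 3.

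Haptoglobin, which binds free haemoglobin, was the most abundant member in reads. Hp spans chromosome 8 from 109575128 to 109579172, minus strand. In female liver, the controls held 5935, 4154, 3877, 5074 and 5035 counts and the nicotine libraries 4063, 4071, 3928, 3383 and 3654. Nicotine libraries 4 and 5 lay below all controls, and the other 3 between the 2 lowest controls. The log2 change was -0.32 (SE 0.10, limma adjusted p = 0.101), and without control library 3, the lowest control, it was -0.39 (0.0326). That was the 1 of 10 fits leaving out 1 library that called Hp, and the 10 gave -0.39 to -0.24. Without control library 4 and nicotine library 5 together it was -0.28 (limma adjusted p = 0.290). In male liver, the means were 5581 ± 873 and 6408 ± 838 (log2 change 0.20, limma adjusted p = 0.583), and the sex difference of 0.52 was not called (limma adjusted p = 0.175).

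In female gWAT, Hp was at 1215, 691, 949, 1653 and 841 counts in the controls and 480, 570, 1587, 495 and 426 in the nicotine libraries. All nicotine libraries but library 3 lay below all controls, and library 3 lay near the top control. The log2 change was -0.72 (SE 0.33, limma adjusted p = 0.124), and without nicotine library 3 it was -1.06 (limma adjusted p = 0.00696). That was the 1 of 10 fits leaving out 1 library that called Hp, and the 10 gave -1.06 to -0.54. Without control libraries 2 and 4 and nicotine library 5 together it was -0.54 (limma adjusted p = 0.345). The main fit called 25.2% of all tested genes there. In male gWAT the means were 4758 ± 3293 (n = 4) and 2833 ± 1609 (n = 5), with overlap (log2 change -0.63, SE 0.60).

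**Figure D4:**
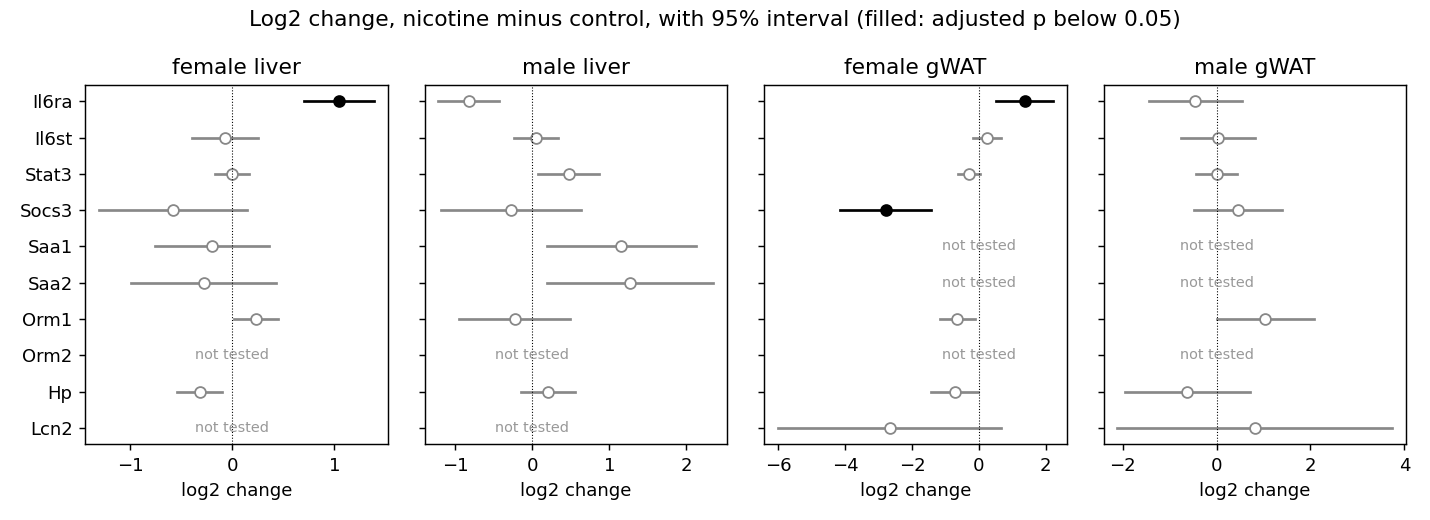
Log2 change of each tested member, nicotine minus control, in the 4 tables; points are limma estimates, bars are 95% intervals, and filled points are called at a limma adjusted p below 0.05. Il6ra lies to the right in both female tables (1.05 and 1.36) and to the left in both male tables (-0.83 and -0.45), and Socs3 in female gWAT is furthest to the left (-2.78).

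Lipocalin 2 sequesters the iron carriers of bacteria and is made by neutrophils, epithelia, adipocytes and hepatocytes. Lcn2 spans chromosome 2 from 32384633 to 32388252, minus strand. In female gWAT, the controls held 0, 0, 7.86, 442 and 233 counts and the nicotine libraries 8.03, 2.42, 0, 0 and 1.88. Control libraries 4 and 5 held nearly all of the reads, and the groups overlapped at the low end. The log2 change was -2.67 (SE 1.56, limma adjusted p = 0.225). On the whole reads, edgeR's quasi-likelihood test gave -5.80 with an adjusted p of 0.0232, and DESeq2 gave -5.80 with 0.0422. The authors' deposited DESeq2 values are a log2 fold change of -0.80 and an adjusted p of 0.273, not past the threshold. The call thus differed between tests. Of all tested genes in female gWAT, edgeR called 24.3% and DESeq2 20.4%. Neutrophil markers summed to 520 and 156 counts in these 2 control libraries and to 15.6 to 70.7 in the other controls, and the reproductive tract epithelium markers to 553 and 85.3. The epithelium markers were at 189 in control library 2, with 0 counts of Lcn2, at 190 in nicotine library 5, with 1.88 of Lcn2, and at 5.88 to 51.8 in the rest. Their part in the result was not tested.

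In male gWAT, Lcn2 was at 522, 23.7, 28.0 and 7.81 counts in the controls and 479, 5.65, 55.2, 220 and 58.7 in the nicotine libraries. One library of each group stood high, and the rest overlapped (log2 change 0.81, SE 1.33). The 2 high libraries were those with the most epithelium markers, 12574 and 10343 counts, and the library with 220 counts of Lcn2 held 3083. Control library 4 held 3547 counts of these markers and 7.81 of Lcn2. In liver, Lcn2 was at most 8.59 counts in any female library. In male liver it was at 0.989 to 3.36 in the controls and at 28.7, 3.11, 1.05, 1.28 and 13.9 in the nicotine libraries. The 2 higher ones were libraries 1 and 5, which had higher sums of the epithelium list, whose source in liver was not tested.

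**Figure D5:**
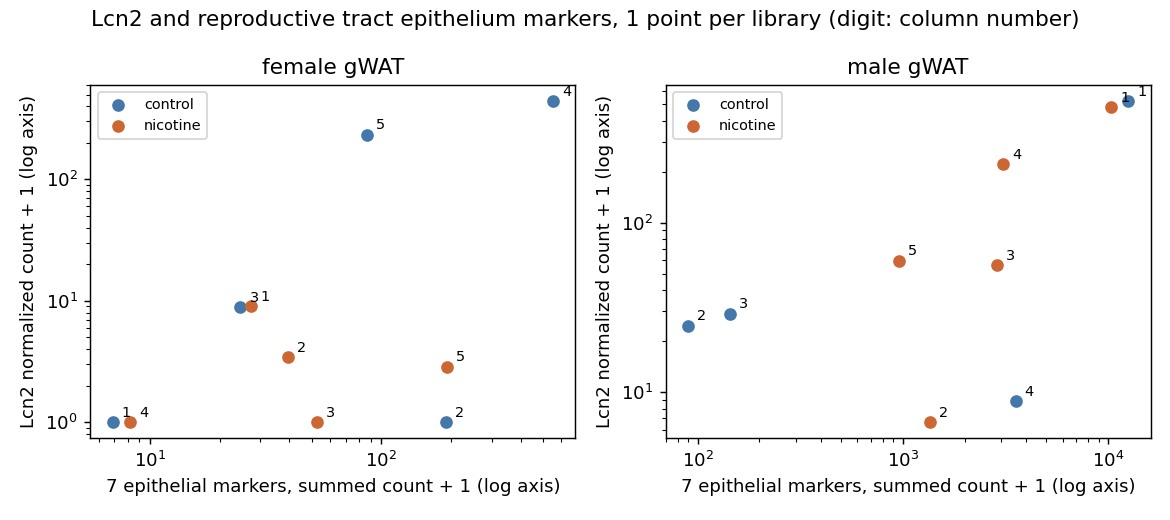
Lcn2 normalized count + 1 (vertical, log axis) against the summed normalized count + 1 of 7 reproductive tract epithelium markers (horizontal, log axis), 1 point per gWAT library with its column number. In male gWAT control library 1 and nicotine library 1 are highest on both axes, and in female gWAT control libraries 4 and 5 are highest for Lcn2.

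Across the members tested, 2 of 8 had a higher and 6 a lower mean in female liver (median log2 change -0.13, against 0.00 over all tested genes). In male liver 5 of 8 were higher and 3 lower (0.13, against 0.00). In female gWAT 2 of 7 were higher and 5 lower (-0.64, against -0.03), and in male gWAT 5 of 7 were higher and 2 lower (0.03, against 0.01). In male gWAT, limma called 0 of 7 members and 0% of all tested genes. At an unadjusted p below 0.05, limma found 182 genes there (1.62%), Orm1 the 1 member among them, and edgeR and DESeq2 called 0 genes. Groups without overlap were found for 0 of the 7 members and for 0.731% of all tested genes.

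Other genes of the pathway came from a list of 79: ligands, receptors and their proteases, kinases and transcription factors, inhibitors, and positive and negative acute phase proteins. In female liver 4 of 63 tested were called higher and 2 lower, against 1.61% and 1.67% of all tested genes. Nfkbia, the inhibitor of NF-kB, was at 522 ± 44.4 in the controls and 795 ± 101 in the nicotine group (log2 change 0.60, limma adjusted p = 0.00109). Hpx, the haem scavenger hemopexin, was at 2982 ± 321 and 5103 ± 1340 (log2 change 0.74, limma adjusted p = 0.00277). Steap4, a metalloreductase, rose by 0.78 and Cebpb, a C/EBP factor of the acute phase, by 0.46 on the log2 scale. Pim1, a kinase gene and a target of STAT signalling, fell by 1.11, and Junb, an AP-1 subunit and immediate early gene, fell by 1.13. The calls lay in both directions, and the 1 feedback inhibitor among them, Nfkbia, was higher. None of the 7 tested receptor and protease genes and none of the 7 negative acute phase genes passed.

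In male liver 0 of 61 tested pathway genes were called by limma. The 3 of smallest p were Steap4 (115 ± 33.0 and 321 ± 159 counts, log2 change 1.36, limma adjusted p = 0.122) and the metallothioneins Mt2 (log2 change 1.66, 0.146) and Mt1 (1.42, 0.161). For Steap4, DESeq2 gave an adjusted p of 0.00225, and limma 0.00163 without nicotine libraries 1 and 5. Nfkbia was at 569 ± 28.0 and 587 ± 18.7 in male liver, and its male minus female change was -0.55 (limma adjusted p = 0.0361). Il6ra and Nfkbia were thus both called for a sex difference in liver, though Nfkbia lost its call with no filter on low values (0.0514) and in 9 of the 20 fits that left out 1 library.

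In female gWAT 4 of 53 tested pathway genes were called higher and 5 lower, against 12.4% and 12.8% of all tested genes. Lifr, the LIF receptor chain that pairs with gp130, was at 78.5 ± 15.0 and 197 ± 52.4 (log2 change 1.28, limma adjusted p = 0.00133). Il11ra1, the IL-11 binding chain, rose by 0.67, Cp (ceruloplasmin) by 1.01 and Hpx by 0.96, although Hpx lost its call in 8 of the 10 fits that left out 1 library. Adam17, the protease that sheds the IL-6 receptor from the cell surface, was at 184 ± 19.6 and 106 ± 19.1 (log2 change -0.81, limma adjusted p = 0.00341). Also lower were Junb (log2 change -1.65), Lrg1 (-1.19), the complement gene Cfb (-1.33) and Saa3, a serum amyloid A gene of macrophages and adipocytes (-2.60). The macrophage markers were lower in the same libraries, and their part in these results was not tested. Of the 7 tested receptor and protease genes, 2 were called higher and 1 lower. The others had log2 changes of 0.04 (Osmr), -0.14 (Adam10), -0.29 (Tnfrsf1a) and -0.32 (Il1r1).

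In male gWAT 0 of 57 tested pathway genes were called by limma. The 3 of smallest p were Cish, a STAT5-induced inhibitor (20.6 ± 12.7 and 48.9 ± 17.6, log2 change 1.36), Cebpd (0.92) and the kinase gene Tyk2 (0.48), each with a limma adjusted p of 0.9996. The male minus female change in gWAT was called for Lifr (-1.61, limma adjusted p = 0.0142), Cp (-0.99, 0.0334), Junb (1.52, 0.0370), Cfb (1.49, 0.0387) and Saa3 (2.73, 0.04996). Lifr was called in all 19 fits that left out 1 library, while Cp and Cfb each lost the call in 8 of them, Junb in 10 and Saa3 in 13 of the 17 that tested it. Of the 9 ligand genes, 1 was high enough to be tested in female liver and none in the other tables.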

How the data were processed

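Liver and gWAT RNA was purified on Zymo Direct-zol columns and made into 3′ tag libraries with an Illumina kit, per the labels' protocols. Tools named in the submitters' processing notes are STAR, cutadapt and DESeq2, with mm10 as the build; versions, annotation and strand use are not stated there. The deposited values are a normalized count signal, for which the authors divided the reads of a gene by 1 size factor per library within each table. Per the file headers, the tables also hold the authors' log2 fold changes with their p-values and adjusted p-values. Whole reads were recovered from all values within 0.1 reads. The control columns of male gWAT do not show which labelled sample each one is and were used as 4 unnumbered replicates, where the design assumed 5.

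Each table was tested with limma 3.58.1 in R 4.3.3 (eBayes, trend option) on the log2 of the normalized count plus 1. Genes averaging at least 10 were tested, two-sided, and p-values were adjusted over all of them by Benjamini-Hochberg, with 0.05 as the threshold. The sexes were compared by an interaction over the 4 groups of a tissue. Alternatives were pseudocounts of 0.5 and 5, a minimum mean of 50 or none, quantile normalization, DESeq2 1.42.0 and edgeR 4.0.16 on the whole reads, a block on the replicate number, and each library left out in turn. Fits without libraries that held other tissues' transcripts or stood apart were added after seeing the data. The members and lists were chosen with earlier results of these data known. Pathway genes are named where past the threshold in a table, and otherwise the 3 of smallest p. Gene positions came from GENCODE M21. The code was tested on simulated data.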

Additional observations from a re-analysis of the deposited data

Results flagged for a closer look

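In 116 groups of 4 or 5 samples checked, 11 samples stood far from the rest of their group, by the gap to the nearest sample as a share of the group's range (Dixon's test at 95%). Chance flags about 1 in 20 groups. In female liver, nicotine library 2 was high for Saa1 (385 normalized counts) and Saa2 (93.2). In male liver, nicotine library 4 was high for Saa1 (2913) and Saa2 (360), and control library 5 for Hp (7080) and Mt1 (341). In female gWAT, control library 5 was high for Il6st (186), nicotine library 5 for Socs3 (9.38) and nicotine library 3 for Hp (1587), and control library 2 was low for Orm1 (199.7). In male gWAT, control library 1 was high for Lcn2 (522).

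A called difference between the sexes is given as the male minus the female log2 change. In liver it was found for Il6ra (-1.87) and Nfkbia (-0.55). In gWAT it was found for Il6ra (-1.81), Lifr (-1.61), Cp (-0.99), Cfb (1.49), Junb (1.52), Saa3 (2.73) and Socs3 (3.24).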

How the results depend on the processing

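Il6ra in female liver, its sex difference in liver and Socs3 in female gWAT stayed called under every alternative that tested them. A mean of 50 or more removed Il6ra and Socs3 from testing by construction, so called members went from 1 to 0 in female liver, from 2 to 0 in female gWAT, from 1 to 0 for the sex difference in liver, and from 2 to 1 (Orm1) for that in gWAT. In male liver the count went from 0 to 1 (Il6ra) with DESeq2, and to 1 without nicotine libraries 2 and 4. In female gWAT it went to 0 without control libraries 2 and 4 and nicotine library 5, where Socs3 was below the filter and Il6ra had a limma adjusted p of 0.0703. For the sex difference in gWAT it went to 1 (Socs3) with a pseudocount of 0.5 and with no filter. Leaving out 1 library gave these ranges of called members: female liver 1 to 2, male liver 0 to 0, female gWAT 1 to 4, male gWAT 0 to 0, and for the sex difference 1 to 1 in liver and 0 to 3 in gWAT. Genes called in male liver numbered 5 by limma, 3 by edgeR and 161 by DESeq2. No direction of a called value reversed. Of the alternatives for single members, 862 kept their side of the threshold, 17 lost a call and 13 gained one; for pathway genes these numbers were 461, 66 and 2.

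With the replicate number as a block, the members called (female liver 1, male liver 0, female gWAT 2, sex difference in liver 1) were as many as without it. Same-numbered samples did not deviate together (r from -0.28 to 0.17), so the numbers were not taken to pair samples. The block left Hpx in female gWAT and the sex difference of Nfkbia in liver uncalled (limma adjusted p = 0.0769 and 0.0652). No block could be fitted in male gWAT, whose control columns carry no sample number, nor for the sex difference there.

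Depth limits the low members. Il6ra rested on at most 67 reads per library and Socs3 on at most 28, and Lcn2 and Orm2 in liver and the serum amyloid A genes in gWAT were mostly too low to test.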
